A study of Auxenochlorella pyrenoidosa with 12 samples.

Results

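The 100 most abundant transcripts of nitrate-replete cells of the green alga Auxenochlorella pyrenoidosa were followed through 4 levels of NaNO3 in the growth medium. Members were the 100 features, of 16413 in the deposited tables, with the highest mean FPKM in the 3 control libraries (FPKM counts fragments per kilobase of feature, scaled to the size of the library, so it is a level per length and can be compared between features). Groups were named by NaNO3 concentration: N0 had 0 g/L, N0.5 had 0.5 g/L, N1 had 1 g/L and N1.5, the control, had 1.5 g/L. All were cultures of 1 strain, labelled SHOU-1002, with 3 libraries a group that the design text calls biological repeats. RNA was selected with oligo(dT) beads, so the libraries measure polyadenylated messages and represent organelle transcripts poorly. Culture conditions, time of harvest and any batch were not given in the sources used here, so the group and a shared harvest or culture day cannot be told apart.

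In green algae nitrate is imported, reduced to ammonium and built into amino acids. In growing cells the most abundant nuclear messages are commonly those for light-harvesting proteins, for the small subunit of Rubisco and for ribosomal proteins. Nitrogen shortage is known to slow protein synthesis, to lower the photosynthetic machinery and to direct carbon into starch and oil. This is background only: the files hold feature names of the kind that Trinity gives to assembled contigs, with no gene name, function or sequence, so no member could be placed in any of these classes, and members are identified below by their rank (1 to 100) in mean FPKM at N1.5.

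The members spanned less than 1 order of magnitude at N1.5, from 8957 FPKM at rank 1 to 1049 FPKM at rank 100, and the curve fell steeply over the first ranks only. Rank 2 stood at 7823 FPKM, rank 3 at 5603 FPKM and rank 10 at 3743 FPKM. At the edge of the rule, rank 100 had 1048.8 ± 26.25 FPKM and rank 101, just outside, had 1041.3 ± 24.99 FPKM (SD, n = 3), so these neighbours differed by less than their spread. The choice itself was stable: with 1 control library left out at a time, 100, 99 and 100 of the members were chosen again. The lowest estimated count of any member in any library was 3057, and all 100 members passed the filter on low counts.

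**Figure D1:**
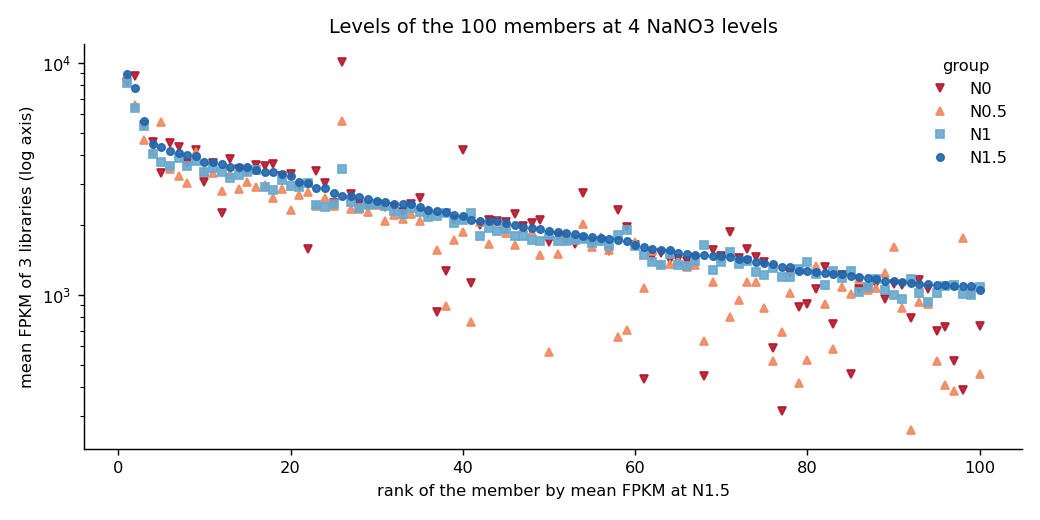
Mean FPKM (log axis, 3 libraries a group) of each of the 100 members against its rank at N1.5, with 1 symbol for each group; the N1.5 symbols fall along a line because they set the rank. Most symbols lie close to that line, rank 26 stands far above it at N0 (10042 FPKM), and the members far below it lie mostly beyond rank 35, down to 260.3 FPKM at N0.5 (rank 92).

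The members took nearly one share of the library at every NaNO3 level, within about 2 percentage points of each other on average. Of each library's FPKM total they held 32.8, 31.6 and 31.5% at N0, 30.8, 30.2 and 29.5% at N0.5, 30.1, 31.3 and 29.9% at N1, and 32.0, 32.6 and 32.0% at N1.5. The means were 32.0 ± 0.70% at N0, 30.2 ± 0.65% at N0.5, 30.4 ± 0.75% at N1 and 32.2 ± 0.33% at N1.5 (SD, n = 3). Every N0 library lay above every N0.5 and every N1 library, while N0.5 and N1 overlapped. Much of the excess of N0 over N1 came from 2 members, ranks 26 and 40. Together they held 2.06 ± 0.24% at N0, 1.17 ± 0.08% at N0.5, 0.80 ± 0.03% at N1 and 0.69 ± 0.06% at N1.5. This pair was picked on the N0 and N1 libraries, as the members that rose 2-fold or more between them. In bulk libraries fewer cells that use a transcript and less of it per cell cannot be told apart, and a change in total RNA per cell is not seen. The N1.5 share was set by the rule that chose the members and is given as a description. Because the members are short, their share of reads was smaller than their share of FPKM: of the estimated counts they held 20.2 ± 0.65% at N0, 18.2 ± 0.38% at N0.5, 20.4 ± 0.33% at N1 and 21.6 ± 0.21% at N1.5. On the count scale N0 and N1 overlapped, so the order of N0 and N1 depended on whether length was taken into account, and N0.5 had the lowest mean on both.

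Shares are given next for 3 bands of rank, with no test between bands. Ranks 1 to 10 held 7.24 ± 0.30% of the FPKM total at N0, 7.33 ± 0.18% at N0.5, 6.61 ± 0.26% at N1 and 7.25 ± 0.10% at N1.5. Ranks 11 to 50 held 15.9 ± 0.22% at N0, 14.4 ± 0.40% at N0.5, 14.3 ± 0.40% at N1 and 15.1 ± 0.13% at N1.5. Ranks 51 to 100 held 8.85 ± 0.21% at N0, 8.50 ± 0.07% at N0.5, 9.52 ± 0.10% at N1 and 9.86 ± 0.09% at N1.5. The lower part was thus below N1 in all 6 libraries of N0 and N0.5. Ranks 11 to 50, by contrast, were above N1 in all 3 libraries of N0. Much of that excess came from ranks 26 and 40, which together held 2.06% at N0 and 0.80% at N1.

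**Figure D2:**
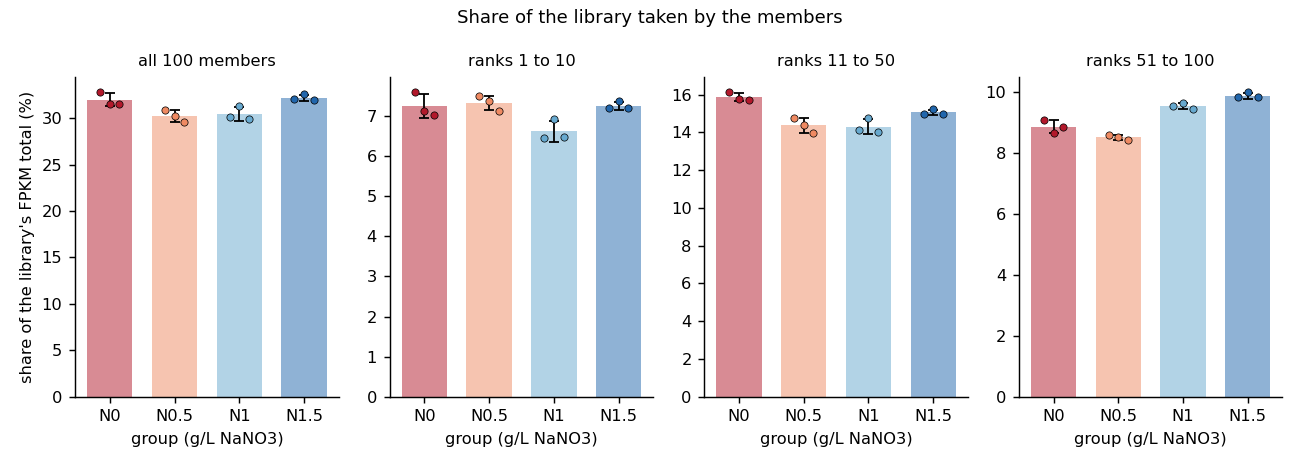
Share of each library's FPKM total (%) held by all members and by 3 bands of rank; bars are means of 3 libraries, error bars are SD and points are libraries. All members held between 29.5 and 32.8% in the 12 libraries, and ranks 51 to 100 held less at N0 and N0.5 (8.43 to 9.06%) than at N1 and N1.5 (9.43 to 9.97%).

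Most of the list stayed at the top whatever the nitrate level. Of the 100 members, 85 were again among the 100 highest mean FPKM values at N0, 84 at N0.5 and 93 at N1, and 71 were among the 100 highest in each of the 12 libraries. All of ranks 1 to 10 were among the 100 highest in every library. The members that dropped out came mainly from the lower part of the list: 14 of the 15 lost at N0, 14 of the 16 lost at N0.5 and all 7 lost at N1 were from ranks 51 to 100. These ranks stood nearest the cut at N1.5 and ranks 1 to 10 furthest above it, so this pattern was largely set by the rule. The lowest place any member took was 251 at N0 (rank 77), 281 at N0.5 (rank 92) and 113 at N1. The features that came in differed between groups. The 15 features that entered at N0 held 4.85% of the N0 total, reached place 5, and included 4 that lay beyond place 1000 at N1.5, one at place 10229. The 16 that entered at N0.5 held 2.74% of that total and came from places 102 to 221 at N1.5, and the 7 that entered at N1 came from places 101 to 143.

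Because the members were chosen on the N1.5 libraries, differences were tested only between groups the choice did not use. N1 was nevertheless close to N1.5: 93 of the 100 members were also among the 100 highest at N1. A choice of high values at N1.5 is thus also a choice of high values at N1. Falls from N1 may be favoured over rises by it, so the direction of differences from N1 is not independent of the choice. The test was edgeR's quasi-likelihood test on rounded estimated counts, fitted over all features with TMM scaling (a scaling that assumes most features do not change). A member rose or fell where its Benjamini-Hochberg adjusted p was under 0.05. Of all tested features 55.3% passed in N0 against N1, 60.4% in N0.5 against N1 and 67.3% in N0 against N0.5. Most features were thus called, so the assumption behind TMM may not hold here. Fold changes below are on this TMM count scale, which is not the FPKM scale of the levels. TMM placed N0 higher than library totals did: with library totals the median log2 difference of all tested features was -0.17 in N0 against N1, compared with -0.01 with TMM. Shares of all tested features are given with TMM only. Counts of members with library totals, DESeq2 or limma therefore have no matching share beside them. Comparisons that share a group of libraries are not independent of each other, since N1 enters 2 of the 3 and so do N0 and N0.5.

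Without added nitrate, and with TMM scaling, most members rose slightly relative to N1 and a minority, mostly in the lower part of the list, fell further. In N0 against N1, 88 of the 100 members passed the test, where 55.3% of all tested features did. Of the members 69 rose, where 25.6% of all 15429 features did, and 19 fell, where 29.7% did. The median log2 fold change of the members was 0.22 and that of all tested features -0.01. With library totals the split was 32 up and 21 down, and 51 members (32 up, 19 down) were called in the same direction with TMM, RLE size factors and library totals. The members' median lay 0.23 above that of all tested features, and 0.17 above it without N0 replicate 1 and 0.30 without N0 replicate 2. Many of the changes were small: 51 members were within 1.25-fold of N1 (71 with library totals), where 39.5% of all tested features were with TMM. Rises of 2-fold or more numbered 2 (9.42% of all tested features rose so). Falls of 2-fold or more numbered 6 (9.79% of all tested features fell so). These counts of 2 up and 6 down were 2 and 8 with library totals, and 1 and 9 with limma on log2(FPKM + 1).

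Ranks 1 and 2 kept their places near the top at every NaNO3 level. Rank 1 stood at 8788, 8396 and 7674 FPKM at N0, 8795, 8743 and 8412 FPKM at N0.5, 7946, 8589 and 8080.3 FPKM at N1, and 8658, 9067 and 9145 FPKM at N1.5. All 4 groups overlapped in FPKM except N1 with N1.5. Rank 1 had the highest mean FPKM of all features at N0.5, N1 and N1.5 and took place 3 at N0, with an implied length of only 0.20 of the median feature. With TMM it rose slightly, by a log2 fold change of 0.18 ± 0.06 (SE) in N0 against N1 (edgeR adjusted p = 0.0276) and 0.16 ± 0.06 in N0.5 against N1 (0.0433). Rank 2 had 9710.2, 8482 and 8224 FPKM at N0, 6898, 6443 and 6331 FPKM at N0.5, 6084, 6961 and 6191 FPKM at N1, and 7812, 8206 and 7452 FPKM at N1.5. Its N0 libraries lay above all others, and N0.5 overlapped N1. Of ranks 1 to 10, 8 rose in N0 against N1 with TMM and 2 did not pass the test, where 25.6% of all tested features rose and 29.7% fell, while with library totals 5 rose, 1 fell and 4 did not pass. In N0.5 against N1, 3 rose, 1 fell and 6 did not pass with TMM (2, 3 and 5 with library totals), where 29.1% of all tested features rose and 31.3% fell. Ranks 1 to 10 thus rose at about the share of all features there. In N0 against N0.5, 6 rose, 1 fell and 3 did not pass with either scaling, where 34.2% of all tested features rose and 33.1% fell with TMM.

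Rank 26, TRINITY_DN5931_c0_g1_i1_1, had the highest mean FPKM of all features at N0. It stood at 8753, 12191 and 9181 FPKM at N0, 6244, 5281 and 5260.1 FPKM at N0.5, 3244, 3741 and 3461 FPKM at N1, and 2979, 2294 and 2744 FPKM at N1.5. Each group lay above the next higher NaNO3 level with no overlap between libraries, and N0 replicate 2 was the highest value. Its log2 fold change was 1.69 ± 0.12 (SE) in N0 against N1 (edgeR adjusted p = 3.70e-08), 0.77 ± 0.12 in N0.5 against N1 (7.27e-05) and 0.92 ± 0.12 in N0 against N0.5 (9.66e-06). Its place among all features was 1 at N0, 3 at N0.5 and 11 at N1, against 26 at N1.5, by group means. It took place 1 in N0 replicates 2 and 3 and place 3 in replicate 1, below ranks 2 and 1. Without replicate 2, in a check added after the values were seen, its mean of 8966.8 FPKM was just under the 8967.1 FPKM of rank 2. It is also one of the shortest members, with an implied length of 0.22 of the median feature.

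Rank 40, TRINITY_DN6775_c2_g1_i3_2, differed from rank 26 in that it was higher at N0 only. It stood at 4186, 3855 and 4586 FPKM at N0, 1896, 1867 and 1826 FPKM at N0.5, 2129.9, 2082 and 2110.2 FPKM at N1, and 2157, 2132 and 2257 FPKM at N1.5. The 3 N0 libraries lay far above the other 9, which were all between 1826 and 2257 FPKM. The log2 fold change was 1.16 ± 0.08 in N0 against N1 (edgeR adjusted p = 2.17e-08) and 1.26 ± 0.08 in N0 against N0.5 (5.62e-09), and -0.10 ± 0.08 in N0.5 against N1, which did not pass (0.309). Next in size was rank 54, at 2752 ± 98.9 FPKM in N0, 2029 ± 49.1 in N0.5, 1734 ± 50.4 in N1 and 1798 ± 65.2 in N1.5 (SD, n = 3), with a log2 fold change of 0.83 ± 0.06 in N0 against N1 (edgeR adjusted p = 5.99e-08). Ranks 23 and 2 followed, with log2 fold changes of 0.65 ± 0.07 and 0.63 ± 0.08.

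The 6 members that fell 2-fold or more in N0 against N1 were ranks 77, 68, 61, 85, 98 and 37, with log2 fold changes from -1.76 to -1.21. Together they held 0.42 ± 0.01% of the FPKM total at N0, 1.05 ± 0.07% at N0.5, 1.26 ± 0.08% at N1 and 1.28 ± 0.04% at N1.5 (SD, n = 3); the N0 and N1 shares describe a set picked on those libraries. Rank 77, TRINITY_DN7271_c0_g3_i3_1, stood at 309, 348 and 288 FPKM at N0, 638, 682 and 747 FPKM at N0.5, 1231, 1151 and 1206 FPKM at N1, and 1306, 1346 and 1309.5 FPKM at N1.5. It was lower at each lower level of NaNO3, with no overlap between groups. Its log2 fold change was -1.76 ± 0.07 in N0 against N1 (edgeR adjusted p = 1.68e-10), -0.71 ± 0.07 in N0.5 against N1 (8.76e-07) and -1.05 ± 0.07 in N0 against N0.5 (9.70e-09).

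Rank 68, TRINITY_DN4242_c0_g1_i2_1, is the longest member, with an implied length of 3.48 times the median feature. It stood at 460.1, 444 and 439 FPKM at N0, 476, 647 and 775 FPKM at N0.5, 1771, 1381 and 1788 FPKM at N1, and 1575, 1380.1 and 1492 FPKM at N1.5. Both low groups lay far below both high groups, the N0.5 libraries were widely spread, and N1 overlapped N1.5. The log2 fold change was -1.72 ± 0.15 in N0 against N1 (edgeR adjusted p = 2.77e-07), -1.30 ± 0.15 in N0.5 against N1 (4.24e-06) and -0.41 ± 0.15 in N0 against N0.5 (0.0223).

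Of the other 4, ranks 61, 85 and 37 had intermediate levels at N0.5. Rank 61 averaged 433 ± 21.6 FPKM at N0, 1067 ± 61.8 at N0.5, 1488 ± 50.2 at N1 and 1604 ± 16.6 at N1.5. Rank 85 averaged 455 ± 45.3 FPKM at N0, 1006 ± 37.5 at N0.5, 1264 ± 96.0 at N1 and 1200.4 ± 51.4 at N1.5. Rank 37 averaged 841 ± 25.6 FPKM at N0, 1556 ± 65.4 at N0.5, 2178 ± 96.3 at N1 and 2292 ± 92.6 at N1.5. Rank 98 took another course. It had 408, 359 and 394 FPKM at N0, 1754, 1717 and 1784 FPKM at N0.5, 1036, 959.5 and 1033 FPKM at N1, and 1087, 1033 and 1149.7 FPKM at N1.5, so that N0.5 was its highest group and N0 its lowest. Its log2 fold change was -1.22 ± 0.08 in N0 against N1 (edgeR adjusted p = 1.93e-08), 0.88 ± 0.08 in N0.5 against N1 (5.89e-07) and -2.09 ± 0.08 in N0 against N0.5 (7.05e-11).

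**Figure D3:**
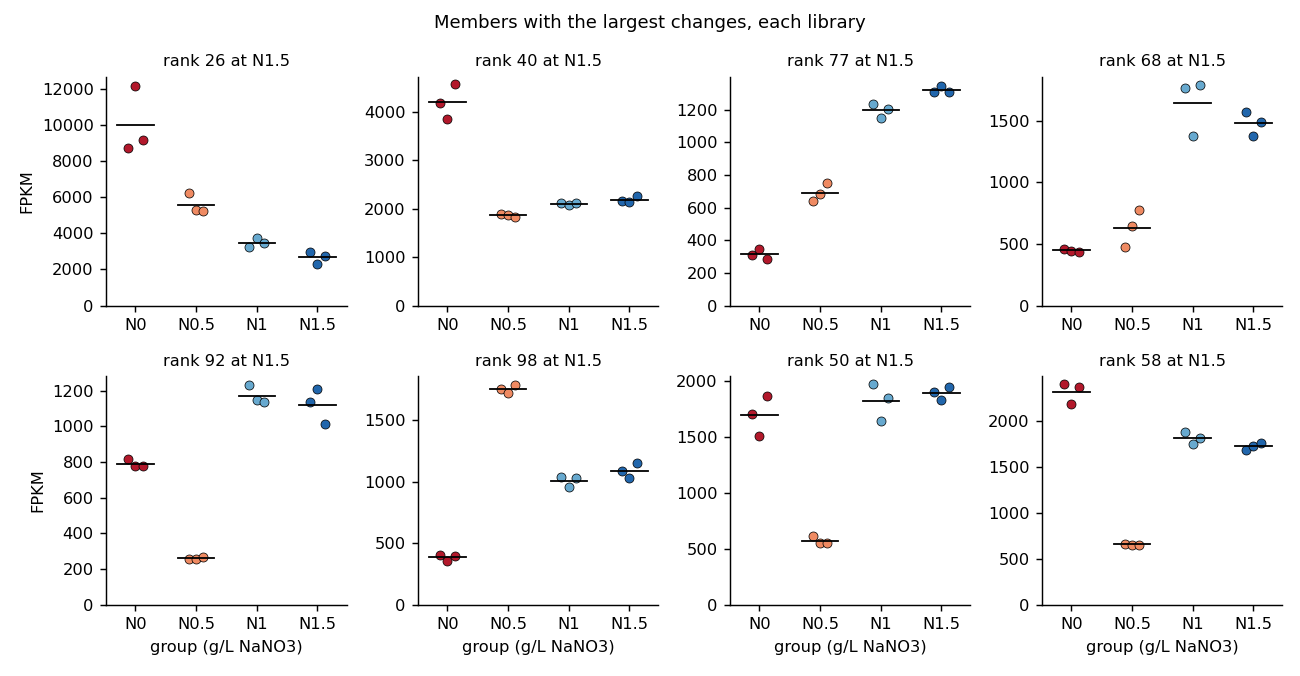
FPKM in each of the 12 libraries for 8 members, with points for libraries and a line at the mean of each group of 3. Rank 26 is highest at N0 and lower at each higher NaNO3 level, rank 40 is raised at N0 alone, ranks 77 and 68 are low at N0, ranks 92, 50 and 58 are lowest at N0.5 (260.3, 569 and 658 FPKM on average) and rank 98 is highest there (1752 FPKM).

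At 0.5 g/L most members lay near their N1 level, and a small set fell sharply. In N0.5 against N1, 47 of the 100 members passed the test, where 60.4% of all tested features did. Of the members 19 rose, where 29.1% of all tested features did, and 28 fell, where 31.3% did. The other 53 did not pass the test and had log2 fold changes between -0.20 and 0.15. The median log2 fold change of the members was -0.04, against 0.04 for all tested features. Within 1.25-fold of N1 were 74 members, where 33.7% of all tested features were. Fewer members were called than in N0 against N1 with TMM, but with library totals 53 were called in both comparisons. The rises were few and depended on single libraries and on scaling: the count was 10 without N1 replicate 3, 12 without N0.5 replicate 1 and 12 with library totals, where 41 members fell. The falls of 2-fold or more numbered 14 of 100, where 7.68% of all tested features fell so, and 0 members rose by 2-fold or more, with edgeR, DESeq2 or limma, where 11.5% of all tested features did. The largest rise was 0.88 on the log2 scale, so a looser p would add none. Both counts at 2-fold were the same with TMM, RLE and library totals. Among ranks 101 to 500, 23% fell by 2-fold or more and 5.75% rose so, and the median log2 fold change was -0.25. Falls of this size were thus more frequent among the members than among all tested features, but less frequent than in that band. No test was made between these sets. Since the choice at N1.5 also picked features that were high at N1, the balance of falls and rises was not free of it.

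The 14 members with falls of 2-fold or more had log2 fold changes from -2.09 to -1.03, with a median of -1.33, and 11 of them were from ranks 51 to 100. Rank 92 fell the furthest. It stood at 816, 779 and 779 FPKM at N0, 258, 254 and 269 FPKM at N0.5, 1230.4, 1145 and 1134 FPKM at N1, and 1136, 1210.5 and 1010.2 FPKM at N1.5. The N0.5 libraries were the lowest, the N0 libraries lay between them and the rest, and N1 overlapped N1.5. The log2 fold change was -2.09 ± 0.07 in N0.5 against N1 (edgeR adjusted p = 5.84e-11), -0.40 ± 0.07 in N0 against N1 (1.60e-04) and 1.69 ± 0.07 in N0 against N0.5 (8.99e-11).

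Rank 50 was low at N0.5 only. It had 1701, 1506 and 1864 FPKM at N0, 611, 548 and 549 FPKM at N0.5, 1966, 1641 and 1843 FPKM at N1, and 1898, 1827 and 1939 FPKM at N1.5. N0 overlapped N1, and the 3 N0.5 libraries stood far below all others. Its log2 fold change was -1.59 ± 0.11 in N0.5 against N1 (edgeR adjusted p = 2.25e-08), and 0.06 ± 0.10 in N0 against N1, which did not pass (0.645). Rank 58 stood even higher at N0 than at N1, at 2325 ± 117 FPKM in N0, 658 ± 1.54 in N0.5, 1818 ± 61.2 in N1 and 1729 ± 43.1 in N1.5 (SD, n = 3). The log2 fold change of rank 58 was -1.38 ± 0.07 in N0.5 against N1 (edgeR adjusted p = 2.07e-09) and 0.52 ± 0.07 in N0 against N1 (2.00e-05). Ranks 79, 41 and 97 were also among the 5 largest falls, and were low at both N0 and N0.5. Rank 79 averaged 881 ± 7.65 FPKM at N0, 415 ± 20.2 at N0.5, 1295 ± 61.5 at N1 and 1267 ± 17.6 at N1.5. Rank 41 averaged 1126 ± 62.6 FPKM at N0, 766 ± 22.2 at N0.5, 2250.4 ± 66.5 at N1 and 2109 ± 26.0 at N1.5. Rank 97 averaged 519 ± 43.4 FPKM at N0, 384 ± 10.6 at N0.5, 1106 ± 23.7 at N1 and 1096 ± 54.2 at N1.5.

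The largest rises in N0.5 against N1 were those of ranks 98, 90, 26, 5 and 89. Rank 90 averaged 1109 ± 55.0 FPKM at N0, 1614 ± 17.7 at N0.5, 993 ± 42.8 at N1 and 1146 ± 12.6 at N1.5, with a log2 fold change of 0.78 ± 0.06 (edgeR adjusted p = 1.10e-07). Rank 89 had the smallest of the 5 rises, at 0.33 on the log2 scale. Rank 5 had the largest rise there among the first 10. Its values were 3458, 3362 and 3235 FPKM at N0, 5714, 5745 and 5195 FPKM at N0.5, 3864, 3746 and 3617 FPKM at N1, and 4280.1, 4429 and 4319.9 FPKM at N1.5. It was highest at N0.5 with no overlap with any other group, and its log2 fold change was 0.65 ± 0.06 in N0.5 against N1 (edgeR adjusted p = 1.07e-06) and -0.65 ± 0.06 in N0 against N0.5 (6.75e-07). In N0 against N1 it was 0.01 ± 0.06 (adjusted p = 0.953), although its FPKM was lower in all 3 N0 libraries than in all 3 N1 libraries, which shows the size of the difference between the FPKM and TMM scales.

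**Figure D4:**
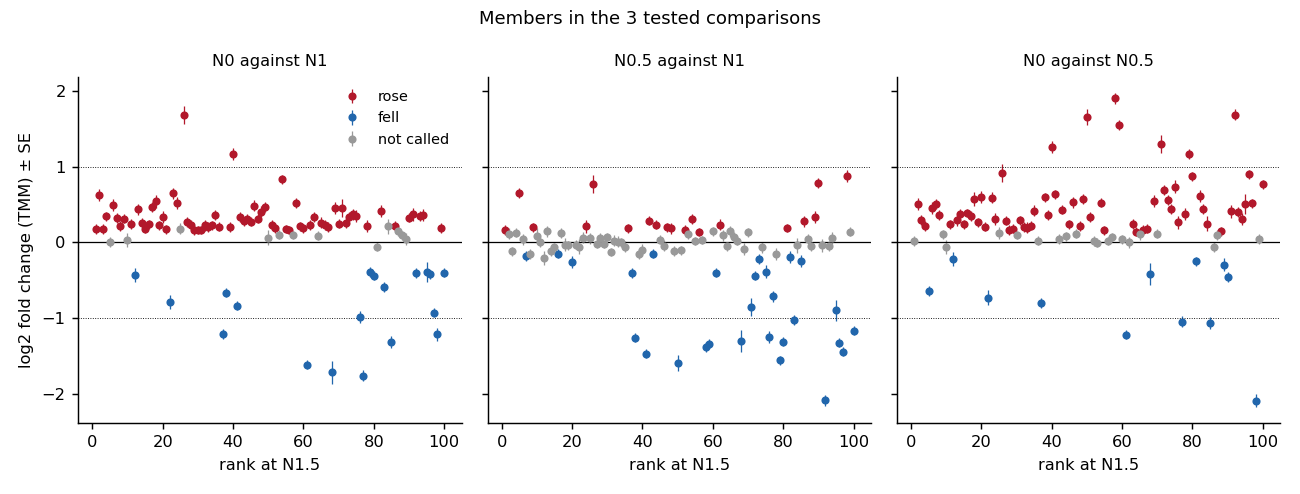
Log2 fold change on the TMM count scale, with SE bars, of each member against its rank at N1.5 in the 3 tested comparisons, coloured by edgeR call; dotted lines mark 2-fold. A band of small rises is seen in N0 against N1 and in N0 against N0.5 (medians 0.22 and 0.26), the band lies near 0 in N0.5 against N1 (-0.04), and all points beyond 2-fold other than rank 26 lie at rank 37 or later.

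Between the 2 lowest levels, most members were higher without nitrate. In N0 against N0.5, 80 of the 100 members passed the test, where 67.3% of all tested features did. Of the members 68 rose, where 34.2% of all tested features did, and 12 fell, where 33.1% did. The median log2 fold change of the members was 0.26 and that of all tested features -0.02, and with library totals 56 members rose and 13 fell, with medians of 0.16 and -0.11. Ranks 101 to 500 had a median of 0.28 with TMM, and 54.25% of them rose and 31% fell. The upward shift was thus not particular to the members. Rises of 2-fold or more numbered 7 (12.4% of all tested features) and falls of that size 4 (17.0%). The 7 rises were ranks 58, 92, 50, 59, 71, 40 and 79, with log2 fold changes from 1.17 to 1.90. Rank 59 averaged 1958 ± 31.1 FPKM at N0, 707 ± 7.20 at N0.5, 1894 ± 64.9 at N1 and 1700.0 ± 24.5 at N1.5. Rank 71 averaged 1872 ± 268 FPKM at N0, 805 ± 39.2 at N0.5, 1534 ± 130.5 at N1 and 1453 ± 104 at N1.5. Both had their lowest level at N0.5, with no overlap with any other group. Together these 7 held 1.98 ± 0.14% of the FPKM total at N0 and 0.83 ± 0.01% at N0.5, by a choice made on those libraries, and 1.67 ± 0.08% at N1 and 1.61 ± 0.02% at N1.5 (SD, n = 3). The 4 falls were ranks 98, 61, 85 and 77, from -2.09 to -1.05, and rank 37 followed with -0.81.

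Relative to the control, whose libraries chose the members, the same fit gave these values, which carry no test. The members' median log2 difference was 0.13 in N0, -0.10 in N0.5 and -0.08 in N1, each against N1.5. In N1 no member was 2-fold lower or higher, where 3.76 and 3.47% of all tested features were. There 99 of 100 were within 1.25-fold, where 73.7% of all tested features were, and the other member was rank 26. In N0.5, 13 members were 2-fold or more lower and 1 was higher, where 9.01 and 15.5% of all tested features were. In N0, 7 were lower and 2 higher, where 13.0 and 12.3% were. Members chosen for high values in N1.5 are more likely to lie lower elsewhere, so nothing is read from the direction of these differences.

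The group means of the members lay closer together than those of the features ranked next. Over N0, N0.5 and N1, the highest group mean of FPKM was a median of 1.23 times the lowest among the members, 1.95 times among ranks 101 to 500 and 1.85 times among all tested features. Of the members, 52 had all 3 means within 1.25-fold, compared with 12.3% of ranks 101 to 500 and 12.1% of all tested features, and 22 members spread by 2-fold or more, compared with 48.5 and 44.4%. These ratios are of FPKM as given, whose library total averaged 692628 at N0, 639059 at N0.5 and 695108 at N1. The lower total at N0.5 enters the ratios of all 3 sets. The spread between replicates was about that of the next ranks: the median coefficient of variation of FPKM was 4.95, 3.88 and 4.85% for the members at N0, N0.5 and N1, against 4.59, 3.61 and 5.07% for ranks 101 to 500. No test was made of these differences between bands of rank. The counts of calls did not follow one order: in N0.5 against N1, 47 of the 100 members and 80.0% of ranks 101 to 500 were called, while in N0 against N1, 88 of the 100 members and 77.5% of that band were. In N0 against N1, 69 members rose and 19 fell, and of the band 32.5% rose and 45.0% fell. In N0 against N0.5, 80 of the 100 members and 85.25% of the band were called. There 68 members rose and 12 fell, and of the band 54.25% rose and 31.0% fell.

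**Figure D5:**
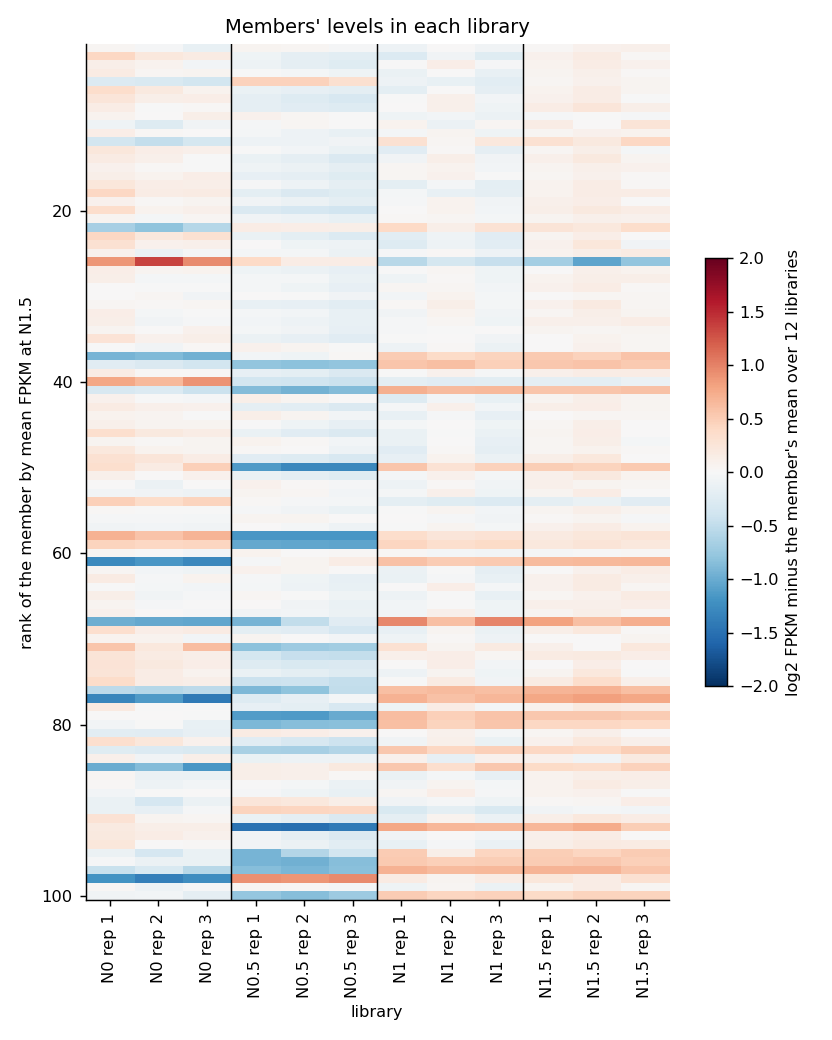
Log2 FPKM of each member (rows, by rank at N1.5) in each of the 12 libraries (columns), minus the member's mean over the 12 libraries; red is above and blue below that mean. Most rows are nearly white in all libraries, and the coloured rows are alike within each group of 3, such as rank 26 (red at N0), rank 77 (blue at N0) and rank 92 (blue at N0.5).

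The members also shared properties that the rule did not use directly. Dividing each count by its library total and by its FPKM gave an implied length. It was one value per member over the libraries, within 1.29% for every member. Members were short: their median implied length was 0.69 of that of all features, 80 of 100 were below the median, and lengths went from 0.20 (rank 1) to 3.48 (rank 68). Ranks 101 to 500 had a median of 0.93. FPKM divides by length, so short features reach a high FPKM from fewer reads, and when members were chosen by CPM (counts scaled to the library total) without regard to length, 83 of the 100 were the same. By their names the members came from 97 assembly clusters, of which 3 held a pair of members. One pair, ranks 72 and 96, were isoforms of one assembled gene: rank 72 averaged 1446 FPKM at N0, 947 at N0.5, 1361 at N1 and 1428 at N1.5, and rank 96 averaged 724, 410.2, 1088 and 1099 FPKM at N0, N0.5, N1 and N1.5. Both were lowest at N0.5, and at N0 rank 72 lay above its N1 level and rank 96 below. For 44 members another isoform of the same assembled gene was listed, compared with 28.3% of all features, and reads shared between near-identical isoforms may be assigned to either one, so the levels of such members are uncertain.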

How the data were processed

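RNA sequencing of 12 libraries gave 2 deposited tables over the same 16413 features. One holds estimated counts and the other FPKM values, both made by the authors. The submitters' processing notes name Bowtie2 2.4.5, Trimmomatic 0.40 and DESeq without saying what each did. How contigs were assembled and counted is not given in the sources used here. Library totals were 22027761 to 24383226 estimated counts. Replicates of a group differed by more than counting error (chi-square per degree of freedom 4.75 to 16.2).

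Members were ranked by mean FPKM at N1.5, and shares are of the sum of FPKM in a library. Rounded estimated counts were tested in one fit of all 12 libraries with edgeR 4.0.16 (R 4.3.3; quasi-likelihood test, TMM factors 0.908 to 1.07, filterByExpr by group, 15429 features tested), two-sided, with Benjamini-Hochberg adjustment over all tested features. The standard error is the log2 fold change divided by the square root of F. Alternatives used RLE, library totals, no filter, DESeq2 1.42.0, limma 3.58.1 on log2(FPKM + 1) and log2(FPKM + 0.1), fits of 2 groups, a replicate block, other choices of members, and leaving out each library. The members, comparisons and naming rule were chosen with earlier results of these data known. By that rule the names of at most 2 rising and 2 falling members are printed, those with the largest changes in N0 against N1 among called members without overlap; others go by rank: ranks 1 to 10 and the 5 largest rises and falls of each comparison.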

Additional observations from a re-analysis of the deposited data

How the results depend on the processing

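The called members of N0 against N1 numbered 88, and 53 with library totals, 49 with limma on log2(FPKM + 1) and 47 on log2(FPKM + 0.1), all of which scale to library totals. Requiring 2-fold or more gave 8 in N0 against N1, 14 in N0.5 against N1 and 11 in N0 against N0.5. Leaving out 1 library gave 66 to 94, 36 to 45 and 67 to 90 called members in these comparisons, where all libraries gave 88, 47 and 80. Replicate numbers did not pair the libraries (correlations of deviations between -0.06 and 0.10); with a replicate block the counts were 89, 49 and 80. The split in N0 against N1, 69 up and 19 down, was 32 and 21 with library totals and 27 and 20 with limma on log2(FPKM + 0.1). The split in N0.5 against N1, 19 up and 28 down, was 12 up and 41 down with library totals, 9 and 39 with that limma fit, 13 up and 36 down with only the 2 groups fitted, and 26 up and 20 down for members chosen by CPM. The 30 changes followed singly, the largest rises and falls of each comparison, kept their direction and their call in all 14 alternatives each. Other changes given by rank, such as the small rises of rank 1, were not followed in this way. The members' median log2 difference from N1.5 was -0.050 in N0 and -0.19 in N0.5 with library totals, against 0.13 and -0.10 with TMM, and 0.085 to 0.19 and -0.15 to -0.071 with 1 library left out.

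The share held by the members at N0, N0.5, N1 and N1.5 was 20.2, 18.2, 20.4 and 21.6% of estimated counts, 29.9, 29.5, 29.0 and 30.7% of FPKM for members chosen by CPM, 23.1, 21.7, 20.9 and 22.3% for the 50 highest, and 40.4, 38.3, 40.0 and 41.4% for the 200 highest. Lists of 50 shared 41, 44 and 47 features with the N1.5 list at N0, N0.5 and N1, and lists of 200 shared 162, 156 and 191. Depth did not limit these results, whose lowest count was 3057; 3 libraries a group and the choice of scaling did.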
